A study of Homo sapiens with 12 samples.

Results

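The nuclear-encoded subunits of oxidative phosphorylation (OXPHOS) were followed in 786-O cells across 4 treatments. They were chosen by gene symbol alone: symbols that begin with NDUFA, NDUFB, NDUFC, NDUFS or NDUFV and a number (complex I), the 4 SDH genes (complex II), UQCR (complex III), COX4 to COX8 (complex IV) and ATP5F, ATP5M or ATP5P (complex V). The rule found 82 genes of the 17085 in the count table, and no measured value entered the choice. Of these, 78 passed the filter on low counts and were tested: 37 of complex I, 4 of complex II, 9 of complex III, 11 of complex IV and 17 of complex V. The other 4 held almost no reads: COX6B2 had 15 counts summed over all libraries, ATP5MGL had 2, and COX7A1 and COX7B2 had 1 each.

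RNA sequencing was performed on 786-O, an established human clear cell renal carcinoma line without functional VHL. Cells received DMSO as vehicle, everolimus at 5 µM, SGI-1027 at 1.5 µM, or both drugs at these doses (the combination), for 24 h in every group, with 3 libraries each. Everolimus inhibits mTOR complex 1, a kinase complex that drives growth and mitochondrial biogenesis, and SGI-1027 is an inhibitor of DNA methyltransferases that acts on DNMT1. The per-sample labels give 5 µM for everolimus alone, but the treatment text of the same records gives 10 µM, and the study's methods for RNA sequencing give 5 µM, which was used here. Nothing in the labels says that the replicates came from separate cultures, so p-values measure the spread between these libraries, which may be technical.

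Oxidative phosphorylation is carried out in the inner mitochondrial membrane. Complexes I and II feed electrons from NADH and succinate to ubiquinone, complex III passes them to cytochrome c, complex IV passes them to oxygen, and complexes I, III and IV pump protons that complex V (ATP synthase) lets back to make ATP. Most subunits are encoded in the nucleus, translated in the cytosol and imported, whereas a few core subunits are encoded by mitochondrial DNA and are not analysed here. Clear cell renal carcinoma is known for low reliance on OXPHOS, because loss of VHL stabilises hypoxia-inducible factors that favour glycolysis. Many of the nuclear genes are driven by NRF1, GABPA, YY1 and ERRA, which are held to act in concert with coactivators of the PGC-1 family.

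Members are shown with promoter sequence because the genes of the c-ring of complex V, which encode the same mature protein, include the member with the largest decrease (ATP5MC1) and one with a small decrease (ATP5MC2), and because SDHB had the smallest adjusted p of the members with everolimus and the combination. RefSeq promoter windows of GRCh38.p14, 300 bases each, were found for 66 of the 82 members. Printed below are the 250 bases before the start, 5′ to 3′ on the gene's strand, with capitals for matches to the NRF1 motif GCATGCGC, the ETS/GABPA motif CCGGAAG, the YY1 motif AAGATGGCG or the ERRA motif AAGGTCA on either strand. None of these 4 motifs overlapped another in the printed stretches.
ATP5MC1, chr17:48892537-48892786, plus strand: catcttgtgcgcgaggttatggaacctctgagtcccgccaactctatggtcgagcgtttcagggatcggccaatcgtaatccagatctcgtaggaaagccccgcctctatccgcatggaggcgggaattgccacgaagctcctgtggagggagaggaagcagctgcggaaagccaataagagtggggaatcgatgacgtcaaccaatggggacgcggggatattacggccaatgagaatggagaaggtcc
ATP5MC2, chr12:53676084-53676333, minus strand: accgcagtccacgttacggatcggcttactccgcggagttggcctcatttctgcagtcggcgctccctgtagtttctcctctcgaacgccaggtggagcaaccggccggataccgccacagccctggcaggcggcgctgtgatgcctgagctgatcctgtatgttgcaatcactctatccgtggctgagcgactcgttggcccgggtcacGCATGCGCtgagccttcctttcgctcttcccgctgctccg
SDHB, chr1:17054033-17054282, minus strand: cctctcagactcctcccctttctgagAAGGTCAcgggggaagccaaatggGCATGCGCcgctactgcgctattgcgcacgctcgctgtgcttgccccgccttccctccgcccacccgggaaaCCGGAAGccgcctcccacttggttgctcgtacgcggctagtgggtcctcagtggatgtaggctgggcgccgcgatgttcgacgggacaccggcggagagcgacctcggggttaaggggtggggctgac

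The ATP5MC1 stretch held none of the 4 motifs, the ATP5MC2 stretch held 1 NRF1 motif, and the SDHB stretch held 1 each of the ERRA, NRF1 and ETS/GABPA motifs. ATP5MC2 had 3 windows in the table, and a second one also held an NRF1 motif. Over whole windows of 300 bases, the NRF1 motif was found in 15 of the 79 windows of members (19.0%), against 4.53% of the 15288 windows of tested genes and 3.05% of all 35116 windows. The ETS/GABPA motif was found in 27.8% of members' windows against 16.4% and 10.3%, the YY1 motif in 12.7% against 3.34% and 1.75%, and the ERRA motif in 15.2% against 2.73% and 3.92%, in the same order. In the 250 bases before the start alone, the members' shares were 17.7%, 24.1%, 2.53% and 10.1% for NRF1, ETS/GABPA, YY1 and ERRA, against 3.96%, 13.7%, 1.001% and 2.43% of the windows of tested genes, so most YY1 matches lay at or past the start. By complex and over whole windows, the NRF1 motif was held by 4 of 13 members of complex V, 6 of 31 of complex I, 2 of 12 of complex IV, 2 of 3 of complex II and 0 of 7 of complex III that had a window. A match of letters is a description and not a bound site.

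Libraries held 37046231 to 41516976 counts each, and trimmed-mean (TMM) scaling factors lay between 0.99 and 1.01. The renal carcinoma markers PAX8, PAX2, LHX1, VIM, KRT8, KRT18, EPAS1 and VEGFA were tested, with VIM at 5954 and PAX8 at 409 CPM (counts scaled to a common library total) in DMSO, while PTPRC, PECAM1 and ALB, which mark leukocytes, endothelium and hepatocytes, averaged 0.167, 6.42 and 1.83 counts per library and EPCAM averaged 50.7. DMSO replicate 1 and SGI-1027 replicate 3 stood apart from the other libraries of their groups: 67 and 70 of the 78 members lay below their group's mean there, by a median of −0.10 and −0.13 (log2), and the members' deviations in these 2 libraries correlated with each other (Pearson's r = 0.76 over 78 members of the same 2 libraries, as a description). Counts of calls are therefore also given without both libraries, an alternative chosen after the data were seen. Values are shares of each library's reads, so less RNA of a gene per cell and fewer cells or mitochondria with it cannot be told apart.

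Levels per gene length were compared in DMSO on the authors' FPKM scale. Complex V and complex I held the most abundant members: ATP5F1B, the catalytic beta subunit of ATP synthase, had 433 ± 25.4 FPKM (SD, n = 3), and NDUFS5, an accessory subunit of complex I, had 378 ± 9.72. The most abundant member was COX8A in complex IV with 267 ± 6.13, UQCRH in complex III with 187 ± 18.5 and SDHB in complex II with 107 ± 2.54 FPKM. The lowest tested member was NDUFA5 of complex I, with a mean of 2.97. UQCRH, the hinge protein of complex III, had a near copy, UQCRHL, at 11.7 ± 1.36 FPKM, and reads of the 2 genes cannot be told apart with certainty, since their annotated transcripts share a run of 178 identical bases.

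**Figure D1:**
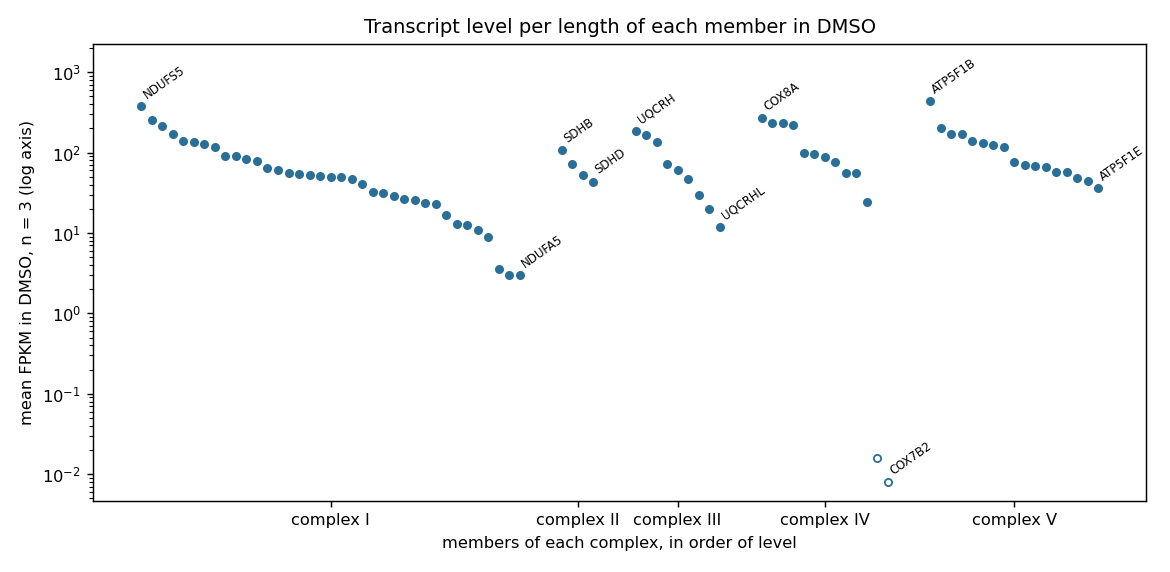
Mean FPKM of each member in DMSO (n = 3, log axis) for complexes I to V, ordered by level within each complex, with filled points for tested and open points for untested members. ATP5F1B at 433 and NDUFS5 at 378 FPKM lead, and the open points of COX6B2 and COX7B2 lie far below the rest (COX7A1 and ATP5MGL are listed at 0 in DMSO and not drawn).

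Forms known for particular tissues were close to absent. COX6A1, COX7A2 and COX4I1, the forms used by most tissues, had 221, 55.6 and 235 FPKM in DMSO. COX7A1, the form of heart and muscle, had 1 count in 1 combination library and 0 in the other 11, and the testis form COX6B2 had 0 to 3 counts per library. COX4I2, COX6A2 and COX8C are not analysed here. COX4I1 had 255, 267 and 277 CPM in DMSO, 273, 271 and 284 with everolimus, 264, 263 and 230 with SGI-1027, and 273, 264 and 251 with the combination. These groups overlapped, and no contrast with DMSO passed the test (edgeR adjusted p = 0.391, 0.189 and 0.767).

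Each drug group was compared with DMSO to ask how the subunit transcripts responded. With SGI-1027, 50 of 78 members fell and 1 rose (edgeR quasi-likelihood test, Benjamini-Hochberg adjusted p under 0.05 over all 12841 tested genes), while 30.6% of all tested genes were called lower and 32.0% higher. With the combination, 46 fell and 2 rose, against 33.4% and 32.8% of all tested genes. With everolimus, 31 fell and 4 rose, against 29.2% and 27.2%. For the drug groups in the order everolimus, SGI-1027, combination, the 78 members had median log2 fold changes of −0.10, −0.23 and −0.18, and all tested genes had 0.00, 0.02 and 0.01. The 3 contrasts share the DMSO libraries and are not independent of each other.

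The changes were small. With all libraries and TMM scaling, no member reached the study's cut-off, an unadjusted p under 0.05 with a log2 change of 1 or more in size. Of all tested genes, 4.79% passed it with everolimus, 7.33% with SGI-1027 and 9.96% with both drugs. At an unadjusted p under 0.05 without a limit on size, 39, 54 and 49 of the 78 members passed. So did 7841, 8479 and 8828 of all 12841 tested genes. Of those that passed, 33, 53 and 47 members were lower, against 4023, 4148 and 4443 of all tested genes. ATP5MC1 with SGI-1027 came nearest to the study's cut-off, at −0.99. That is so near that falling short of it may turn on 1 library or on the scaling. Without DMSO replicate 1 and SGI-1027 replicate 3 together, its change with SGI-1027 was −0.92.

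Without DMSO replicate 1 and SGI-1027 replicate 3, 46, 53 and 59 members fell with everolimus, SGI-1027 and the combination, where 30.9%, 30.9% and 34.6% of all tested genes were lower, and the members' medians were −0.13, −0.24 and −0.24. Scaling by the upper quartile, which moved the median of all genes with everolimus to 0.08, gave 20 members lower and 13 higher with everolimus in place of 31 and 4. Under that scaling 22.6% of all tested genes were lower and 34.9% higher with everolimus, so the count of lower members was near the background. The few higher calls with everolimus also turned on single libraries: 2 remained without DMSO replicate 1, everolimus replicate 1 or everolimus replicate 3, 8 were made without DMSO replicate 3 and 10 without SGI-1027 replicate 3. Higher calls with SGI-1027 numbered 0 without DMSO replicate 1, SGI-1027 replicate 1 or SGI-1027 replicate 2, 2 without DMSO replicate 3 and 4 without SGI-1027 replicate 3, and those with the combination numbered 1 without DMSO replicate 1 or combination replicate 1. Over the fits without 1 library, 24.0% to 28.5% of all tested genes were higher with everolimus. The same shares were 29.1% to 31.8% with SGI-1027 and 30.3% to 33.5% with the combination, so all these counts of members lay below the background.

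**Figure D2:**
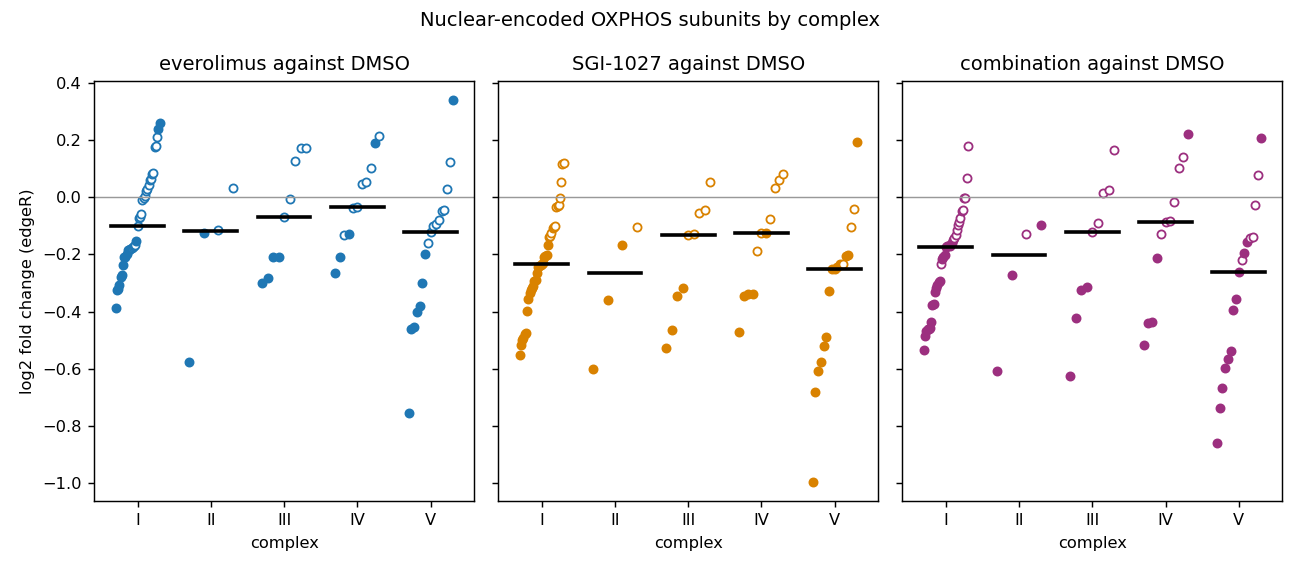
Log2 fold change (edgeR) of each of the 78 tested members against DMSO, with a panel for each drug group, by complex, with filled points for adjusted p under 0.05 and black lines for the median of each complex. All medians lie below 0, although that of complex III with everolimus is 0.0043 under upper-quartile scaling, complex V spreads widest (down to −0.99 for ATP5MC1 with SGI-1027), and no point reaches 1 in size.

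The members are shorter than most genes. Their length, as the 2 deposited tables imply it, had a median of 1194 bases against 4082 for all tested genes, and 60 of the 78 lay among the shortest 2569 tested genes (303 to 2208 bases). Those genes had a median log2 fold change of −0.02 with everolimus, −0.08 with SGI-1027 and −0.06 with both drugs, where the 60 members had −0.09, −0.24 and −0.18. The 18 longer members had −0.16, −0.22 and −0.19.

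Summed over the members of each complex, transcript levels were lowest against DMSO in complex V and nearest to DMSO in complex IV. The summed CPM of complex V was 2608, 2885 and 2943 in the DMSO libraries, 2407, 2373 and 2356 with everolimus, 2206, 2220 and 1916 with SGI-1027, and 2133, 2111 and 2050 with the combination. Every treated library lay below every DMSO library, and the group means were 84.6% ± 0.917, 75.2% ± 6.11 and 74.6% ± 1.52 of DMSO (SD, n = 3 each). Complex IV stood at 98.5% ± 1.70 with everolimus, 88.8% ± 7.02 with SGI-1027 and 91.1% ± 2.34 with both drugs, and its everolimus libraries overlapped with DMSO. Complexes I, II and III stood at 93.6% ± 1.71, 88.2% ± 0.530 and 92.1% ± 1.69 with everolimus. They stood at 84.9% ± 5.56, 83.6% ± 1.69 and 84.8% ± 5.33 with SGI-1027, and 85.0% ± 2.70, 86.4% ± 1.14 and 84.7% ± 3.32 with the combination. These sums are weighted by the most abundant members and were not tested, so the order of the complexes is a description.

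**Figure D3:**
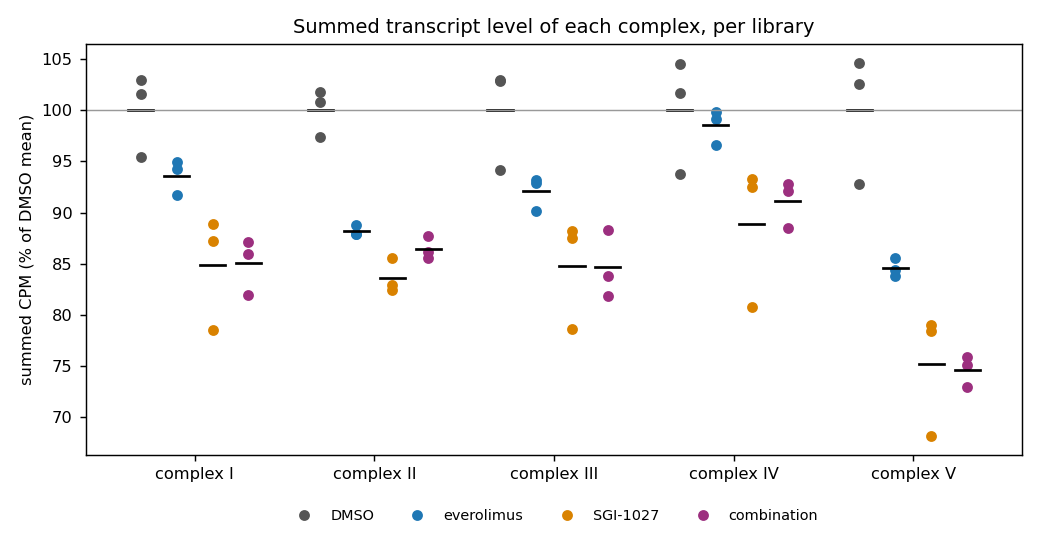
Summed CPM of the members of each complex in each library, as a percentage of the mean of the DMSO libraries (points are libraries, black lines are means of 3). Complex V lies lowest in each drug group, at 84.6% with everolimus, 75.2% with SGI-1027 and 74.6% with both drugs, and SGI-1027 replicate 3 is the lowest point of its group in every complex.

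Complex I, the entry point for electrons from NADH, had 15 of 37 tested members lower with everolimus, 25 with SGI-1027 and 24 with both drugs. These are 40.5%, 67.6% and 64.9% of its members, against 29.2%, 30.6% and 33.4% of all tested genes. Its medians were −0.10, −0.23 and −0.17 (log2). The accessory subunits, which surround the catalytic core, were grouped after values had been seen. Of the 30 accessory members tested, 11, 18 and 17 fell (36.7%, 60% and 56.7%), with medians of −0.04, −0.20 and −0.17. Of the core subunits, NDUFV1 carries the flavin and NDUFS3 lies in the arm that takes electrons to ubiquinone. NDUFV1 had 131, 127 and 131 CPM in DMSO and 115, 114 and 101 with SGI-1027, and NDUFS3 had 42.1, 51.2 and 49.96 against 37.0, 35.98 and 27.3. For both genes, which were chosen after their values were seen, all SGI-1027 libraries lay below all DMSO libraries (log2 fold changes −0.24 and −0.52, edgeR adjusted p = 0.000379 and 6.45e-05). Both were also called lower with the combination, but neither was called with everolimus. NDUFS3 passed with everolimus only without DMSO replicate 1 (−0.26) or SGI-1027 replicate 3 (−0.18), or without both.

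NDUFA9, an accessory subunit, had the largest decrease of complex I with both single drugs. It had 92.8, 108 and 111 CPM in DMSO, 81.9, 79.9 and 77.3 with everolimus, 75.7, 78.6 and 59.0 with SGI-1027, and 76.3, 74.4 and 76.3 with the combination, so no treated library overlapped with DMSO. The log2 fold changes were −0.39 (SE 0.08, edgeR adjusted p = 0.000517), −0.55 (SE 0.08, edgeR adjusted p = 1.13e-05) and −0.46 (SE 0.08, edgeR adjusted p = 6.59e-05). With the combination the lowest was NDUFC1, another accessory subunit, at −0.54 (SE 0.10, edgeR adjusted p = 0.000189). NDUFC1 was also lower with everolimus, at −0.32, but its call there was lost without DMSO replicate 3 (−0.22), everolimus replicate 2 (−0.29) or everolimus replicate 3 (−0.29).

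The smallest decrease called in complex I was that of NDUFS5 with SGI-1027 and that of NDUFB7 with the combination. NDUFS5 had 179, 189 and 191 CPM in DMSO and 170, 181 and 156 with SGI-1027, groups that overlapped, and its log2 fold change of −0.14 (edgeR adjusted p = 0.0331) was not called without DMSO replicate 2 (−0.13) or 3 (−0.12) or without SGI-1027 replicate 1 (−0.15) or 3 (−0.09). NDUFB7 had −0.15 with the combination (edgeR adjusted p = 0.0443), and this was lost in 5 of the 12 fits that left out 1 library: without DMSO replicate 2 or 3 (−0.12 and −0.11), combination replicate 1 or 2 (−0.15 and −0.12) or everolimus replicate 3 (−0.15).

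Everolimus raised 2 members of complex I, both accessory subunits. NDUFA13, also known as GRIM-19, had 102, 114 and 116 CPM in DMSO and 130, 126 and 134 with everolimus, with no overlap and a log2 fold change of 0.24 (SE 0.06, edgeR adjusted p = 0.00152). With SGI-1027 and the combination it had 0.12 and 0.07, which did not pass with all libraries, and the first passed without DMSO replicate 3 (0.15) or SGI-1027 replicate 3 (0.17). NDUFA2 had 29.8, 36.9 and 37.7 CPM in DMSO and 41.9, 41.5 and 41.5 with everolimus (log2 fold change 0.26, SE 0.10, edgeR adjusted p = 0.0346). That call was lost without DMSO replicate 1 (0.16) and without any 1 of the everolimus replicates 1, 2 and 3 (0.25, 0.26 and 0.26). NDUFA4, named for complex I but since assigned to complex IV, had 0.06, −0.13 and −0.10 and was not called in any drug group. Without DMSO replicate 1, SGI-1027 replicate 1 or SGI-1027 replicate 2, its −0.18, −0.19 or −0.19 with SGI-1027 passed.

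Complex II, succinate dehydrogenase, also belongs to the citric acid cycle, and all of its subunits are nuclear-encoded. SDHB, the iron-sulfur subunit, had 111, 108 and 109 CPM in DMSO, 74.3, 71.9 and 74.0 with everolimus, 71.9, 69.4 and 75.2 with SGI-1027, and 71.6, 74.3 and 69.5 with the combination. All 9 treated libraries lay in one narrow range below DMSO, at 0.671, 0.660 and 0.656 of its level. The log2 fold changes were −0.58 (SE 0.04, edgeR adjusted p = 3.20e-09), −0.60 (SE 0.04, edgeR adjusted p = 1.14e-09) and −0.61 (SE 0.04, edgeR adjusted p = 6.46e-10). The SDHB promoter stretch printed above held the ERRA, NRF1 and ETS/GABPA motifs, and a YY1 motif lay past its start.

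SDHA, the flavoprotein that oxidises succinate, had 305, 310 and 304 CPM in DMSO, 284, 277 and 282 with everolimus, 261, 277 and 280 with SGI-1027, and 284, 281 and 294 with the combination. The groups did not overlap with DMSO, and the log2 fold changes were −0.13, −0.17 and −0.10 (edgeR adjusted p = 0.00704, 0.00062 and 0.0266). The last call was lost without DMSO replicate 2 (−0.08) or 3 (−0.10) or combination replicate 1 (−0.08) or 2 (−0.08). SDHD, a membrane anchor, had −0.11 with everolimus, which did not pass, −0.36 with SGI-1027 (edgeR adjusted p = 0.00345) and −0.27 with the combination (edgeR adjusted p = 0.0189), a call lost without DMSO replicate 2 (−0.21) or 3 (−0.23) or combination replicate 1 (−0.25). SDHC, the other anchor, had 62.1, 71.0 and 72.2 CPM in DMSO and 66.7, 74.3 and 69.0 with everolimus and was not called in any drug group (0.03, −0.11 and −0.13). Without DMSO replicate 1 it was called lower with SGI-1027 (−0.17) and the combination (−0.19), and without SGI-1027 replicate 3 with the combination (−0.13). In all, 2, 3 and 3 of the 4 genes fell, where 29.2%, 30.6% and 33.4% of all tested genes were lower. The combination kept 1 call without DMSO replicate 2, DMSO replicate 3 or combination replicate 1.

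Complex III had 4 of 9 members lower in each drug group (44.4%), against 29.2%, 30.6% and 33.4% of all tested genes. Its medians were −0.07, −0.13 and −0.12. The first was 0.0043 under upper-quartile scaling and −0.17 without DMSO replicate 1, and the last was −0.22 without DMSO replicate 1 and −0.058 without DMSO replicate 2. UQCR10, a small subunit, had 122, 130 and 125 CPM in DMSO, 104, 97.5 and 105 with everolimus, 89.7, 89.0 and 82.9 with SGI-1027, and 89.3, 78.9 and 76.0 with the combination, with no overlap between any treated group and DMSO. Its log2 fold changes were −0.30 (SE 0.05, edgeR adjusted p = 0.000136), −0.53 (SE 0.05, edgeR adjusted p = 1.69e-07) and −0.63 (SE 0.06, edgeR adjusted p = 1.36e-08). The core proteins UQCRC1 and UQCRC2 also fell: UQCRC1 had −0.21, −0.35 and −0.31, and UQCRC2 had −0.21, −0.32 and −0.33, with edgeR adjusted p of at most 0.000105 in each. UQCRH and UQCRHL were not called in any drug group with all libraries, and without DMSO replicate 1 UQCRH was called lower with SGI-1027 (−0.22) and the combination (−0.18).

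Complex IV, cytochrome c oxidase, had 3, 5 and 4 of 11 tested members lower, with medians of −0.04, −0.13 and −0.09. These are 27.3%, 45.5% and 36.4% of its members, against 29.2%, 30.6% and 33.4% of all tested genes, so the shares with everolimus and the combination were near the background. COX7B, a small subunit, had 129, 142 and 145 CPM in DMSO, 125, 115 and 119 with everolimus, 104, 104 and 91.7 with SGI-1027, and 95.2, 102 and 92.7 with the combination, and no treated group overlapped with DMSO. Its log2 fold changes were −0.21 (SE 0.06, edgeR adjusted p = 0.00414), −0.47 (SE 0.06, edgeR adjusted p = 1.12e-06) and −0.52 (SE 0.06, edgeR adjusted p = 2.57e-07). COX8A, the most abundant member per length in this complex, had 134, 133 and 130 CPM in DMSO and 99.1, 95.5 and 98.4 with the combination. It had −0.13, −0.35 and −0.44 against DMSO (edgeR adjusted p = 0.0153, 1.29e-06 and 5.21e-08), and the first call was lost without everolimus replicate 2 (−0.11).

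COX5A, a matrix-side subunit, had the largest decrease of complex IV with everolimus, at −0.27 (SE 0.05, edgeR adjusted p = 0.000139), and had −0.34 with SGI-1027 and −0.21 with the combination. COX7A2 had −0.13 with everolimus, which did not pass with all libraries, but passed without DMSO replicate 1 (−0.20) or SGI-1027 replicate 3 (−0.13). With SGI-1027 and the combination it had −0.34 and −0.44, which passed. COX6A1 was called lower with SGI-1027, at −0.13 (edgeR adjusted p = 0.0139), a call lost without DMSO replicate 3 (−0.10) or SGI-1027 replicate 1 (−0.10). In the combination COX6A1 had −0.09 and passed without DMSO replicate 2 (−0.12). COX6B1 was not called with all libraries (−0.04, −0.19 and −0.13). It was called with SGI-1027 without DMSO replicate 1 (−0.30) or either of SGI-1027 replicates 1 (−0.25) and 2 (−0.24), and in the combination without DMSO replicate 1 (−0.24).

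Members of complex IV that rose were COX6C and COX7A2L. COX6C had 74.4, 85.0 and 87.6 CPM in DMSO and 97.4, 88.4 and 95.9 with everolimus (log2 fold change 0.19, SE 0.07, edgeR adjusted p = 0.0321), a call lost without DMSO replicate 1 (0.12), everolimus replicate 1 (0.16) or everolimus replicate 3 (0.17). COX7A2L, which is known for joining complexes III and IV in supercomplexes, had 59.4, 64.1 and 65.8 CPM in DMSO, 66.9, 64.3 and 64.4 with everolimus, 68.7, 64.8 and 63.8 with SGI-1027, and 72.9, 74.8 and 73.0 with the combination. All 3 combination libraries lay above the other 9. The log2 fold change against DMSO was 0.22 (SE 0.05, edgeR adjusted p = 0.000462), and those of everolimus and SGI-1027 were 0.05 and 0.06, which did not pass.

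Complex V, ATP synthase, had 7, 13 and 11 of 17 tested members lower and 1 higher in each group, with medians of −0.12, −0.25 and −0.26. The lower calls are 41.2%, 76.5% and 64.7% of its members, against 29.2%, 30.6% and 33.4% of all tested genes. The higher calls are 5.88% in each group, against 27.2%, 32.0% and 32.8%. Without DMSO replicate 1 and SGI-1027 replicate 3 together, 14 were lower with everolimus, where 30.9% of all tested genes were lower. The median of complex V with the combination was then −0.36. Grouped by the part of the enzyme they build, a grouping written after values had been seen, the 5 subunits of the catalytic head and central stalk had medians of −0.30, −0.49 and −0.54, the 3 genes of the c-ring had −0.45, −0.61 and −0.67, the 4 of the peripheral stalk had −0.09, −0.25 and −0.28, and the 5 other membrane subunits had −0.10, −0.23 and −0.22. ATP5F1B, the catalytic subunit of the head, had 705, 791 and 797 CPM in DMSO, 597, 587 and 577 with everolimus, 530, 548 and 460 with SGI-1027, and 504, 512 and 502 with the combination. It stood at 0.768, 0.671 and 0.662 of DMSO, with no overlap (log2 fold changes −0.38, −0.58 and −0.60, SE 0.05 each, edgeR adjusted p = 1.10e-05, 5.22e-08 and 2.55e-08). ATP5PB, subunit b of the peripheral stalk, was chosen after its values were seen, as the member next to ATP5MC1 in the size of its decrease with SGI-1027 and the combination. It had 158, 179 and 188 CPM in DMSO, 128, 133 and 120 with everolimus, 114, 115 and 98.0 with SGI-1027, and 105, 107 and 103 with the combination, again without overlap (log2 fold changes −0.46, −0.68 and −0.74, SE 0.06 each).

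The genes of the c-ring, the rotor that turns as protons pass, are given side by side, and the difference between genes was not tested. ATP5MC1 had 69.7, 72.1 and 75.1 CPM in DMSO, 43.5, 43.9 and 41.3 with everolimus, 39.7, 37.8 and 31.4 with SGI-1027, and 39.1, 37.8 and 42.7 with the combination, which is 0.594, 0.502 and 0.551 of DMSO. Every treated library lay below every DMSO library, and the log2 fold changes were −0.75 (SE 0.07, edgeR adjusted p = 5.29e-08), −0.99 (SE 0.07, edgeR adjusted p = 1.04e-09) and −0.86 (SE 0.07, edgeR adjusted p = 4.69e-09). ATP5MC3 had 181, 197 and 204 CPM in DMSO, 142, 145 and 138 with everolimus, 133, 136 and 112 with SGI-1027, and 128, 123 and 115 with the combination. Its log2 fold changes were −0.45, −0.61 and −0.67 (edgeR adjusted p = 6.56e-06, 1.39e-07 and 3.26e-08).

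ATP5MC2 had 139, 156 and 154 CPM in DMSO, 146, 150 and 138 with everolimus, 131, 131 and 128 with SGI-1027, and 135, 134 and 135 with the combination. It overlapped with DMSO with everolimus (−0.05, edgeR adjusted p = 0.397) and lay below it with SGI-1027 (−0.21, edgeR adjusted p = 0.000627) and the combination (−0.16, edgeR adjusted p = 0.00493). On the FPKM scale, which allows levels to be compared per length, ATP5MC1 gave 49.5% ± 0.820 (SD, n = 3) of the summed c-ring level in DMSO, 41.0% ± 0.180 with everolimus, 39.5% ± 1.73 with SGI-1027 and 41.8% ± 2.01 with both drugs. ATP5MC2 gave 22.9% ± 0.559, 30.9% ± 0.345, 31.7% ± 2.21 and 31.5% ± 0.450 in the same order. The summed level of the 3 genes was 252 ± 9.69 FPKM in DMSO and 182 ± 6.6, 158 ± 13.5 and 167 ± 2.87. The annotated transcripts of these genes share runs of at most 20 identical bases.

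ATP5F1E, the small epsilon subunit of the central stalk, was the member of complex V that rose. It had 116, 137 and 136 CPM in DMSO, 165, 164 and 163 with everolimus, 154, 160 and 131 with SGI-1027, and 161, 149 and 139 with the combination. The everolimus and combination libraries lay above DMSO, while SGI-1027 overlapped with it. The log2 fold changes were 0.34 (SE 0.07, edgeR adjusted p = 0.000501), 0.19 (SE 0.07, edgeR adjusted p = 0.0240) and 0.21 (SE 0.07, edgeR adjusted p = 0.0158). The SGI-1027 call was lost without DMSO replicate 1 (0.12) or either of SGI-1027 replicates 1 (0.16) and 2 (0.14), and the combination call without DMSO replicate 1 (0.14) or combination replicate 1 (0.16). ATP5MG, subunit g, had −0.05 with everolimus, which did not pass, −0.20 with SGI-1027 (lost without DMSO replicate 3, at −0.15) and −0.26 with the combination.

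**Figure D4:**
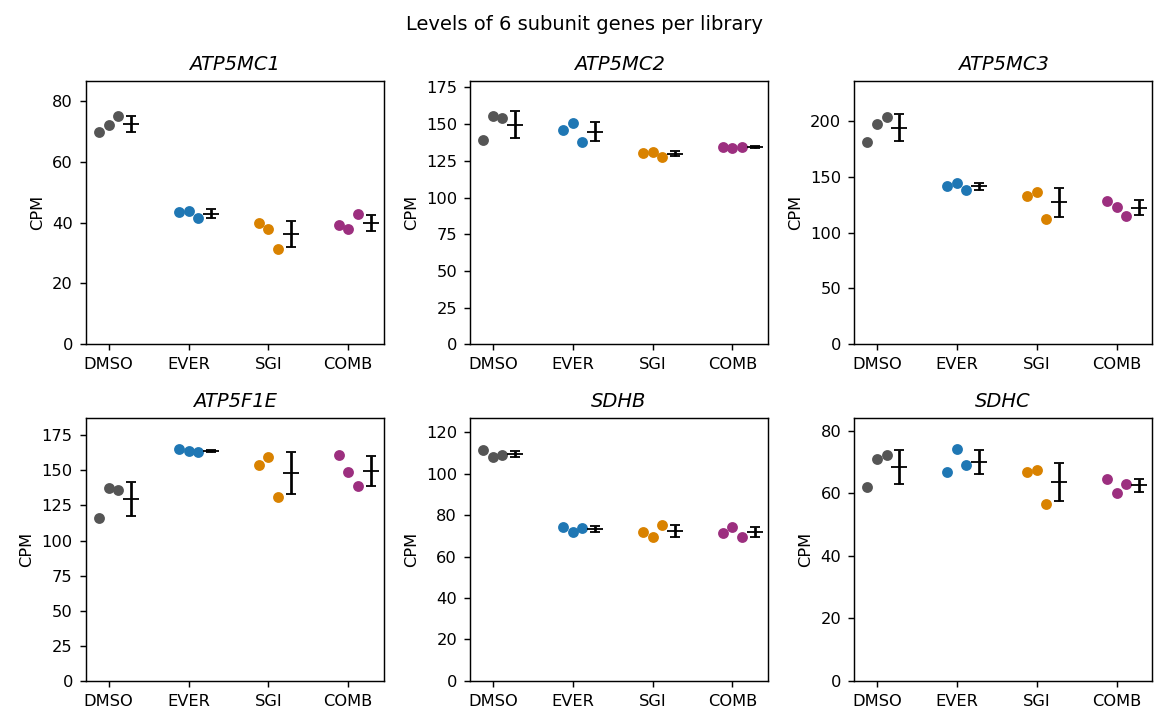
CPM per library of ATP5MC1, ATP5MC2, ATP5MC3, ATP5F1E, SDHB and SDHC (coloured points; EVER, SGI and COMB are everolimus, SGI-1027 and the combination), with the mean and SD of 3 libraries in black. ATP5MC1 falls from about 72.3 to between 36.3 and 42.9 CPM and SDHB from 109 to between 71.8 and 73.4 CPM, ATP5F1E lies higher with everolimus (164 against 130), and SDHC overlaps between groups.

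In the heat map of the tested members, the lowest treated values stand in the top rows of each complex. The columns of DMSO replicate 1 and SGI-1027 replicate 3 are bluer than the other columns of their groups across complexes I to V.

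**Figure D5:**
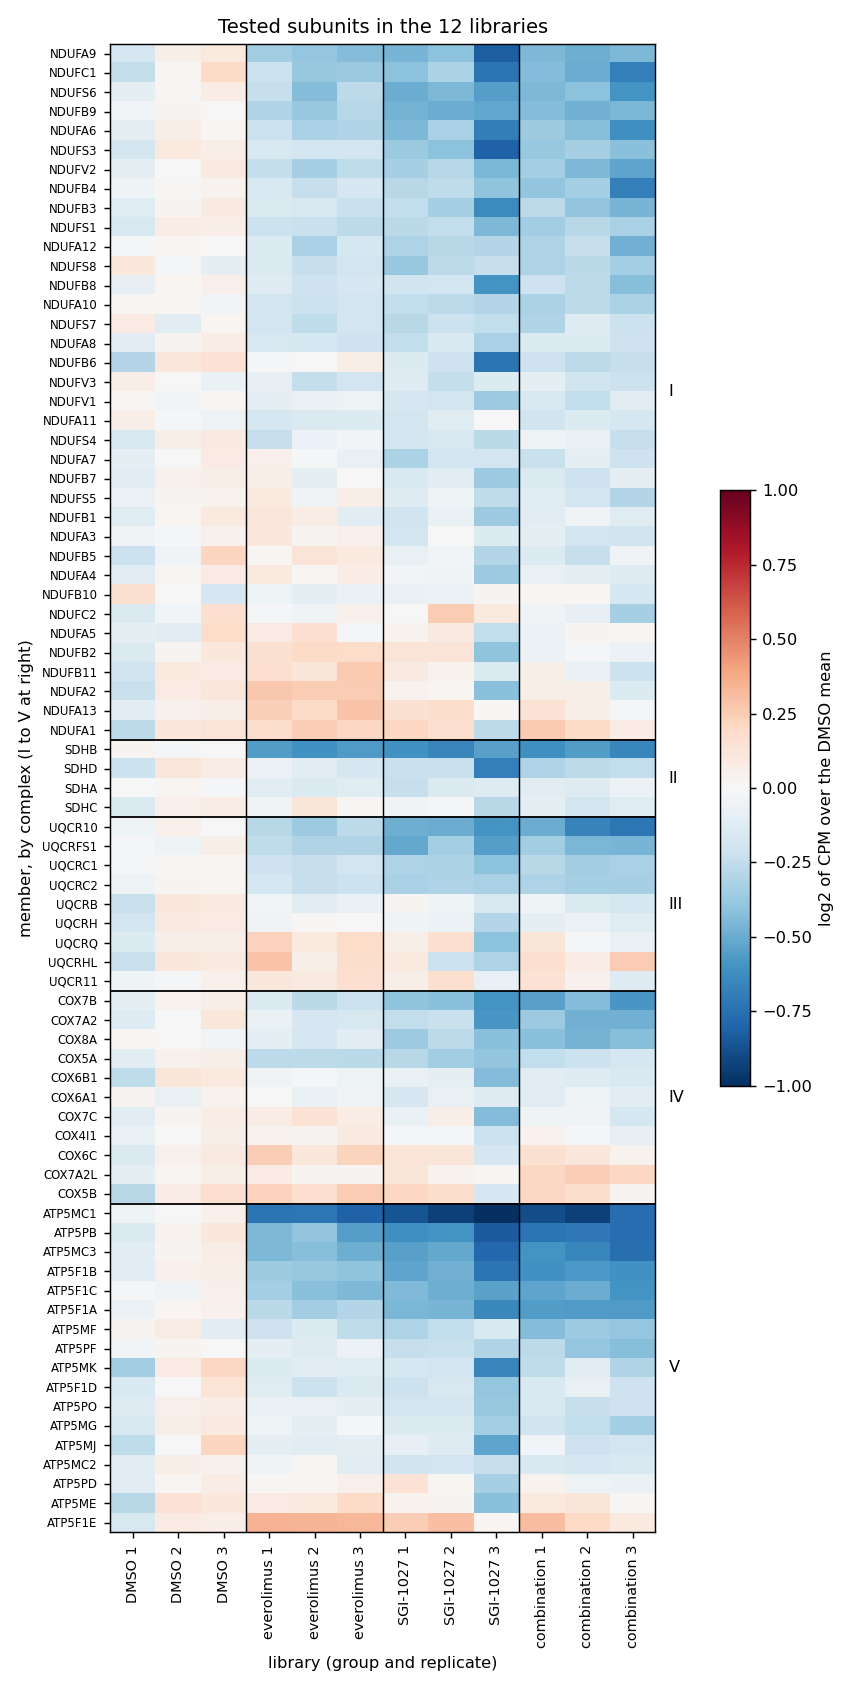
Log2 of CPM over the DMSO mean for 77 of the 78 tested members (rows, by complex I to V and by mean change) in the 12 libraries (columns), from −1 (blue) to 1 (red). The bottom rows of each complex stay near or above DMSO (NDUFA13, COX7A2L, ATP5F1E), and the top rows (NDUFA9, SDHB, UQCR10, COX7B, ATP5MC1) are lower in all 9 treated libraries.

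The combination was compared with each single drug. Against everolimus, 25 members were lower and 1 was higher, where 19.2% and 20.1% of all tested genes were called, and the members' median was −0.13. The count of lower members was 46 without SGI-1027 replicate 3, 14 without combination replicate 3 and 49 without DMSO replicate 1 and SGI-1027 replicate 3 together. Of all tested genes, 21.4%, 15.4% and 24.0% were lower in these fits, so without combination replicate 3 the members were near the background. The largest decreases were those of UQCR10 (−0.33, SE 0.06, edgeR adjusted p = 0.000121), COX8A (−0.31, SE 0.04, edgeR adjusted p = 1.27e-05) and COX7B (−0.31, SE 0.06, edgeR adjusted p = 0.00029). For COX8A and COX7B all combination libraries lay below all everolimus libraries, as they did for UQCR10, and the member that rose was COX7A2L (0.17, SE 0.05, edgeR adjusted p = 0.00646).

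Against SGI-1027, 1 member was higher and 0 were lower by edgeR, where 9.40% and 10.2% of all tested genes were called. DESeq2 and limma on FPKM also called 0 lower. At an unadjusted p under 0.05 in edgeR, 5 members were lower, against 2016 of all 12841 tested genes. The median of the 78 members was 0.02. The higher member was COX7A2L (0.16, SE 0.05, edgeR adjusted p = 0.0202), a call lost without SGI-1027 replicate 2 (0.15), SGI-1027 replicate 3 (0.14) or combination replicate 2 (0.15). The calls depended on the libraries that stood apart. Without DMSO replicate 1 and SGI-1027 replicate 3 together, 13 members were lower and 2 higher, and the median was −0.05. In that fit 12.8% of all tested genes were lower and 12.7% higher, so the count of lower members was near the background. Without SGI-1027 replicate 3 alone 4 members were lower, where 9.99% of all tested genes were lower and 9.84% higher. Lower calls numbered 2 without combination replicate 1, and 1 each without DMSO replicate 3, SGI-1027 replicate 1 or combination replicate 2. Higher calls numbered 2 without DMSO replicate 1 or SGI-1027 replicate 1, and 0 without SGI-1027 replicate 2, SGI-1027 replicate 3 or combination replicate 2.

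The interaction contrast asked whether the combination differed from the sum of the single-drug log2 changes. It was above that sum for 23 members and below it for 2, against 23.6% and 22.1% of all tested genes, and the members' median was 0.11. Upper-quartile scaling gave 13 above and 3 below, where 18.2% and 27.9% of all tested genes were, so the count above was near the background. Without SGI-1027 replicate 3, 9 were below, against 22.0% of all tested genes. For ATP5MC1 the sum of the single-drug changes would be lower than the −0.86 measured by 0.89 (SE 0.10, edgeR adjusted p = 1.32e-06), for SDHB by 0.57 (SE 0.06, edgeR adjusted p = 7.36e-07) and for NDUFA9 by 0.48 (SE 0.12, edgeR adjusted p = 0.00246). For SDHB the combination libraries lay between 69.5 and 74.3 CPM, where the single-drug libraries lay between 69.4 and 75.2. The members below the sum were ATP5F1E (−0.33, SE 0.10, edgeR adjusted p = 0.0124) and NDUFA13 (−0.28, SE 0.08, edgeR adjusted p = 0.00676), which everolimus alone had raised.

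Carriers and subunits that the symbol rule leaves out were counted from a fixed list of 26 genes, of which 24 were tested, all but NDUFA4L2 and SLC25A6. With everolimus, SGI-1027 and the combination, 14, 18 and 18 fell and 2 rose in each, with medians of −0.25, −0.38 and −0.32, where 29.2%, 30.6% and 33.4% of all tested genes were lower and 27.2%, 32.0% and 32.8% higher. CYC1, the cytochrome c1 subunit of complex III, had 289, 278 and 281 CPM in DMSO, 197, 198 and 203 with everolimus, 191, 184 and 192 with SGI-1027, and 195, 191 and 200 with the combination (log2 fold changes −0.50, −0.58 and −0.53). CYCS, cytochrome c itself, had −0.62, −0.83 and −0.71, and SLC25A5, an ATP/ADP carrier of the inner membrane, had −0.46, −0.70 and −0.57. In ubiquinone synthesis, PDSS1, which builds the tail of the molecule, had −0.99, −0.85 and −0.83. COQ8A, a regulator of the same pathway, had 7.73, 7.89 and 7.72 CPM in DMSO, 17.0, 16.4 and 17.7 with everolimus, 14.2, 15.3 and 14.7 with SGI-1027, and 18.0, 17.3 and 18.7 with the combination. It rose by 1.13, 0.92 and 1.21 on the log2 scale, with no overlap. All these changes of CYC1, CYCS, SLC25A5, PDSS1 and COQ8A passed the edgeR test and held in each fit without 1 library.

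Of 14 listed regulators of these genes, 13 were tested (PPARGC1A was not), and 9, 8 and 7 fell while 1, 1 and 2 rose, where 29.2%, 30.6% and 33.4% of all tested genes were lower and 27.2%, 32.0% and 32.8% higher. PPARGC1B, a coactivator of the PGC-1 family, had 6.82, 5.98 and 5.47 CPM in DMSO, 2.41, 3.20 and 2.59 with everolimus, 5.09, 5.85 and 5.62 with SGI-1027, and 7.84, 8.13 and 8.15 with the combination. Its log2 fold changes were −1.15 with everolimus, −0.14 with SGI-1027, which did not pass, and 0.40 with the combination. PPRC1, the related coactivator, had −0.78, −0.18 and −0.22, and the SGI-1027 call was lost without DMSO replicate 1 (−0.13), DMSO replicate 2 (−0.16), SGI-1027 replicate 1 (−0.16) or SGI-1027 replicate 2 (−0.16). GABPB1, the partner subunit of GABPA, had −0.59, −0.75 and −0.90, whereas GABPA rose by 0.33, 0.32 and 0.37. NRF1 had −0.19, −0.39 and −0.53, and its call with everolimus was lost without DMSO replicate 2 (−0.15), everolimus replicate 1 (−0.19) or everolimus replicate 3 (−0.18). TFAM, which packages and transcribes mitochondrial DNA, had −0.37, −0.41 and −0.35.

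Mitochondrial ribosomal proteins, which translate the subunits encoded by mitochondrial DNA, were counted beside the OXPHOS subunits. Of 77 tested, 61, 70 and 64 fell (79.2%, 90.9% and 83.1%) and 0 rose in edgeR. Of all tested genes, 29.2%, 30.6% and 33.4% were lower and 27.2%, 32.0% and 32.8% higher. At an unadjusted p under 0.05, 63, 73 and 64 were lower and 0 higher, where 4023, 4148 and 4443 of all 12841 tested genes were lower. The medians were −0.37, −0.45 and −0.43. The OXPHOS members had 31, 50 and 46 of 78 lower and medians of −0.10, −0.23 and −0.18. The difference between the lists was not tested. Cytosolic ribosomal proteins, also short and abundant, had 11, 23 and 16 of 82 lower and 15, 4 and 11 higher, with medians of 0.06, −0.06 and 0.03. As shares of the 82, lower and higher calls were each below those of all tested genes in every drug group. The shares of all tested genes were 29.2%, 30.6% and 33.4% lower and 27.2%, 32.0% and 32.8% higher.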

How the data were processed

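RNA of 786-O cells was sequenced in 12 libraries, 3 for each of 4 groups taken from the sample labels. The authors deposited a table of raw read counts per gene and a table of FPKM (fragments scaled by gene length and library total), both of 17085 genes. The aligner and counter are not given in the sources used here, and the submitters' processing notes name mouse builds (GRCm38, mm10) although cells and symbols are human, so no coordinates of that build are printed. Total RNA and library kits differ between the study's methods and the sample records, so strand was taken as unknown. FPKM was 0 exactly where the count was 0.

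Counts were filtered with edgeR's filterByExpr (12841 genes kept), TMM-scaled and fitted in one model of 4 groups with glmQLFit (edgeR 4.0.16, R 4.3.3). P-values were Benjamini-Hochberg adjusted over all tested genes, with a threshold of 0.05. CPM used TMM-scaled totals. FPKM served to compare levels per length. DESeq2 1.42.0, limma 3.58.1 on log2(FPKM + 1) and log2(FPKM + 0.1), other scalings and filters, a replicate block and leaving out each library were tried as alternatives. Scripts were tested on simulated data.

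Named members were, for each complex and drug group, those with the highest and lowest called log2 fold change at a mean of at least 50 counts, the 3 highest and 3 lowest called in the other contrasts, the most abundant of each complex, and a fixed set of paralogues, SDH genes, untested members and genes of the short further lists. Members and lists were chosen with earlier results of these data known. The grouping of subunits by role and the removal of DMSO replicate 1 and SGI-1027 replicate 3 together were chosen after values were seen. Processed pseudogenes are annotated for 44 members, most for COX6C (17), and how the authors' counting split such reads is not known. Values of 1 complex I member and 1 marker gene are not reported here singly.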

Additional observations from a re-analysis of the deposited data

Results flagged for a closer look

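For 12 of the 31 tested named members the change with everolimus differed depending on whether SGI-1027 was present, by the interaction term of the edgeR model (adjusted p under 0.05). Over all tested genes 23.6% were above the sum and 22.1% below it, against 23 and 2 of the 78 members. ATP5MC1, SDHB, NDUFA9, ATP5F1E and NDUFA13 were named by their values in this contrast. COX5A, UQCR10, UQCRC1, UQCRC2 and SDHA were named by called changes against DMSO, and the libraries of those contrasts also enter this term. The 12 are therefore a selected set, and their number is a description. The term is the combination's log2 change less the sum of the single-drug changes. It was 0.89 for ATP5MC1, 0.57 for SDHB, 0.48 for NDUFA9, 0.40 for ATP5MC3, 0.39 for COX5A and 0.36 for ATP5F1B. It was 0.24 for UQCRC1, 0.20 for UQCR10, 0.20 for UQCRC2 and 0.20 for SDHA. For NDUFA13 and ATP5F1E it was −0.28 and −0.33. The value of UQCR10 (adjusted p = 0.0424) lost its call in 6 of the 12 fits without 1 library, with values of 0.13 without combination replicate 1, 0.18 and 0.21 without DMSO replicates 2 and 3, 0.21 and 0.17 without everolimus replicates 1 and 2, and 0.17 without SGI-1027 replicate 3.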

How the results depend on the processing

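No value called for a named member changed sign under the alternatives run. Calls for the combination against SGI-1027 went from 1 higher and 0 lower to 0 higher and 4 lower without SGI-1027 replicate 3. In that fit 9.84% of all tested genes were higher and 9.99% lower, so both counts lay below the background. DESeq2, RLE scaling and a minimum of 10 counts in every library moved no count of calls by more than 1.5 times. Under upper-quartile scaling, members called with everolimus were 13 higher and 20 lower (all genes 4480 and 2901), SGI-1027 had 3 higher, the interaction had 13 above the sum (all genes 2335 above and 3578 below), lower calls with everolimus were 8 in complex I, 1 in II and 1 in IV, those of complex II with the combination were 1, and medians with everolimus were −0.045 in complex II and 0.0043 in III. The cause was not tested. Of all tested genes under upper-quartile scaling, 34.9% were higher and 22.6% lower with everolimus, and 36.8% were higher with SGI-1027. With the combination 28.7% were lower. In the interaction 18.2% were above the sum and 27.9% below it. Under the study's cut-off, with all libraries and TMM scaling, all called counts became 0. Without any filter 7 members were higher with everolimus, where 20.2% of all 16734 genes in that fit were higher. Limma on log2(FPKM + 1) gave 2 higher with everolimus, 0 with SGI-1027 and 2 for the combination against SGI-1027, and on log2(FPKM + 0.1) the last was 3. Of all tested genes, 26.4%, 30.6% and 11.4% were higher on log2(FPKM + 1). On log2(FPKM + 0.1) 10.9% were higher for the combination against SGI-1027. Fits on only the groups of a contrast gave 10 higher with everolimus, 0 higher with SGI-1027 and 48 lower for the combination against everolimus. The shares of all tested genes there were 28.8%, 28.9% and 23.4%.

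Without DMSO replicate 1 and SGI-1027 replicate 3 together, 2 were higher with SGI-1027, 49 lower for the combination against everolimus, 2 higher and 13 lower against SGI-1027, and 7 below the sum. Of all tested genes, 30.9% were higher with SGI-1027 and 24.0% lower for the combination against everolimus in that fit. Against SGI-1027, 12.7% were higher and 12.8% lower, and 23.6% were below the sum. Lower calls with everolimus were 5 in complex IV and 14 in complex V, and the median of complex III was −0.17. Medians with the combination were −0.28, −0.22 and −0.36 in complexes II, III and V.

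Leaving out each library in turn gave 2 to 10 members higher with everolimus, 0 to 4 with SGI-1027 and 1 to 3 with the combination, 14 to 46 lower for the combination against everolimus, 0 to 2 higher and 0 to 4 lower against SGI-1027, and 2 to 9 below the sum. Of all tested genes, 15.2% to 21.4% were lower for the combination against everolimus in these fits. Against SGI-1027, 6.79% to 11.1% were higher and 7.08% to 10.9% lower. The shares of all tested genes that were higher ran from 24.0% to 28.5% with everolimus, 29.1% to 31.8% with SGI-1027 and 30.3% to 33.5% with the combination. Those below the sum ran from 19.6% to 22.0%. Complex III medians ran from −0.17 to −0.013 with everolimus and from −0.22 to −0.058 with the combination. Complex II with the combination had medians of −0.28 to −0.15 and 1 to 4 lower calls, where 30.3% to 34.4% of all tested genes were lower.

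Same-numbered libraries did not deviate together (r from −0.18 to 0.04). This gave no sign that the numbers pair the samples, but 3 libraries per group cannot exclude it. With the replicate block, members higher and lower were 4 and 31 with everolimus, 1 and 50 with SGI-1027, 2 and 45 with the combination, 1 and 22 and 1 and 0 for the combination against everolimus and SGI-1027, and 21 and 2 for the interaction. All tested genes higher and lower in that fit were 26.6% and 28.5%, 31.2% and 30.1%, and 32.3% and 32.9% against DMSO. For the other contrasts they were 19.2% and 18.2%, 8.45% and 9.08%, and 22.7% and 21.2%, in the same order. The 4 untested members held at most 15 counts each in all.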

Other observations

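Enzymes of the citric acid cycle, which supplies NADH and succinate to complexes I and II, were counted from a list of 18, without the SDH genes. With everolimus, SGI-1027 and the combination 13, 15 and 16 fell and 0 rose by edgeR (14, 15 and 16 lower and 0 higher at an unadjusted p under 0.05), with medians of −0.32, −0.37 and −0.41. Of 53 tested assembly factors of the complexes, 23, 36 and 32 fell and 5, 4 and 6 rose, with medians of −0.16, −0.24 and −0.24. Over all tested genes 29.2%, 30.6% and 33.4% were lower and 27.2%, 32.0% and 32.8% higher in the same order. At an unadjusted p under 0.05, 4023, 4148 and 4443 of all 12841 tested genes were lower.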
